A study of Arabidopsis thaliana with 6 samples.

Results

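S-protein homologs (SPH) are a family of small secreted plant proteins named after the S protein of the field poppy, and 63 of the 33037 rows of the deposited count table belonged to it. A row was taken as a member where its deposited description contained the words S-protein homolog or self-incompatibility. Of the 63 rows, 60 were annotated genes and 3 were unannotated transcribed blocks on chromosome 4 that carry a family description (called blocks A, B and C here). Among the annotated genes 23 had an SPH symbol, and the others are given here by their locus code. Their transcripts were counted in RNA-seq libraries from unopened flower buds of Arabidopsis thaliana, 3 from the wild type and 3 from the mutant naa50-1, each a biological replicate. NAA50 transfers acetyl groups to the start of proteins, and the series title links it to the degradation of the tapetum, the cell layer of the anther that nourishes pollen. The labels give no ecotype, plant age or further allele for either genotype, and they do not say where the naa50-1 lesion lies.

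In the field poppy, the S protein is made by the stigma and acts as a signal that stops the growth of incompatible pollen tubes. Arabidopsis thaliana is self-fertile and lacks this poppy system, but its genome holds a large family of related genes, whose products carry a signal peptide and conserved cysteines. The function of most of these Arabidopsis proteins is not known, and many of the genes are transcribed weakly or in few tissues.

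The libraries held 19727584 to 20813563 counts each, so that 3 counts in a library corresponded to 0.144 to 0.152 CPM (counts per 1000000 of the library total). Counts of the targeted gene were higher in the libraries labelled naa50-1. A count over the gene does not show whether an intact transcript was made. NAA50 (AT5G11340) averaged 26.1 ± 3.09 CPM in wild-type buds but 2707 ± 323 CPM in buds labelled naa50-1 (SD, n = 3 each). Its log2 fold change was 6.67, with adjusted p = 6.5e-08 in the quasi-likelihood test of edgeR with Benjamini-Hochberg adjustment. Every direction given here is thus relative to the label, and naa50-1 stands for the libraries that carry it. The tissue label was checked with 7 floral organ identity genes (AP1, AP3, PI, AG, SEP1, SEP2 and SEP3): all 7 were detected, 0 passed the threshold in edgeR (2 at an unadjusted p under 0.05, and 1, SEP2, in DESeq2, all higher), and their summed share of all counts was 0.13% ± 0.0138 in the wild type and 0.155% ± 0.0198 in naa50-1. Among wild-type libraries, replicate 2 had the highest share of counts in a list of mature pollen genes, 0.191% against 0.132% and 0.141%.

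S-protein homolog transcripts were nearly lost in naa50-1 buds. The wild-type libraries held 1914, 2534 and 2372 counts in family members, and the naa50-1 libraries held 50, 49 and 61. As a share of all counts this was 0.0113% ± 0.00186 in the wild type and 0.000262% ± 3.53e-05 in naa50-1 (SD, n = 3 each). The 2 sets of libraries were far apart. Summed over libraries, 6820 wild-type counts stood against 160, a ratio of 42.9 with a 95% interval of 36.7 to 50.5 that covers counting error only. SPH5 alone held 1.01% of the family's counts in the wild type and 60% of them in naa50-1. Without SPH5 only 64 counts remained in naa50-1 and the ratio was 106 (83.0 to 138). In bulk tissue, fewer cells of a type and less RNA per cell cannot be told apart.

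Of the 63 members, 22 had no count in any library, 32 had counts but were too low for the test, and 9 entered it. In the edgeR quasi-likelihood test over all 21196 genes, 8 of the 9 were called lower in naa50-1 at an adjusted p of 0.05, 0 were called higher (0 also at an unadjusted p under 0.05 and in DESeq2), and 1 (SPH5) was not called. Over all tested genes 5.59% were called lower and 3.94% higher, 9.53% in either direction. The median fitted log2 fold change was -8.40 over the 9 tested members, or -7.14 with members at 0 in naa50-1 set at their bound against 3 counts, and -0.01 over all tested genes. However, 8 of the 9 passed the filter on low counts only through the wild type, so those members had to differ, and the count of 8 supports nothing about the family as a whole. The 8 genes held 95.5% of the family's wild-type counts, 6512 of them against 30 in naa50-1.

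**Figure D1:**
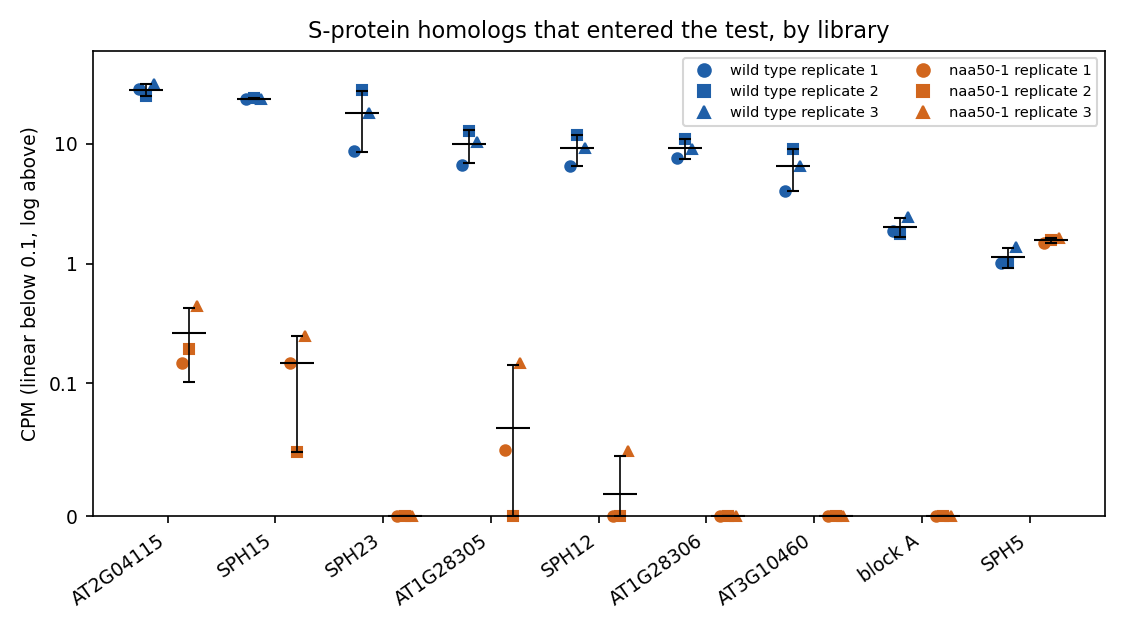
CPM of the 9 S-protein homologs that entered the test, in each of the 3 wild-type (blue) and 3 naa50-1 (orange) libraries, with the mean (horizontal bar) and SD (vertical bar). The axis is linear below 0.1 and logarithmic above. Of the 9 genes, 8 lie far lower in naa50-1, several at 0, and SPH5 lies slightly higher.

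The 200 bases before the annotated start of 7 tested genes are shown: 6 that fell together, of which 2 pairs resemble each other there, and SPH5, which was not called. They were read from the TAIR10.1 genome of RefSeq, on the strand of the gene. Capitals mark the letters CTA and TAG with any 4 bases between them, a widened form of the AT-rich box that pollen MADS-domain proteins of the MIKC* class bind in Arabidopsis. SPH15 (chr5:15810694-15810893, minus strand) and AT2G04115 (chr2:1385238-1385437, plus strand) were the most highly expressed members.
SPH15: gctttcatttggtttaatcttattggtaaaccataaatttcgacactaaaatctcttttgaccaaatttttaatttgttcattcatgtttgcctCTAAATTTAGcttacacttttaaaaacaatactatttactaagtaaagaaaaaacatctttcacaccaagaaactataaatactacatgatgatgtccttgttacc
AT2G04115: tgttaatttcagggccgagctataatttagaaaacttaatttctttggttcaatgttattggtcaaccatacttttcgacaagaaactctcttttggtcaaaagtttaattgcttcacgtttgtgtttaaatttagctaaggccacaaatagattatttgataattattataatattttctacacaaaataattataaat
AT1G28305 (chr1:9905517-9905716, minus strand) and AT1G28306 (chr1:9907726-9907925, minus strand) are neighbouring copies.
AT1G28305: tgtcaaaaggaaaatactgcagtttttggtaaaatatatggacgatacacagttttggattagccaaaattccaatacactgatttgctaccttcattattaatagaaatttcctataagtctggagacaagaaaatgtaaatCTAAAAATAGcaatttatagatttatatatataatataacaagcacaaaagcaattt
AT1G28306: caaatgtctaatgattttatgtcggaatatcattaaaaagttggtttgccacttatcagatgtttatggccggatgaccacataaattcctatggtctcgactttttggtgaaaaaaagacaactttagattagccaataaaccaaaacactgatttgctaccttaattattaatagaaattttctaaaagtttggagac
SPH23 (chr3:9902120-9902319, minus strand) held 2 matches to the widened box, both with G or C among the 4 free bases. SPH12 (chr5:9105526-9105725, minus strand) held 1, with A alone there.
SPH23: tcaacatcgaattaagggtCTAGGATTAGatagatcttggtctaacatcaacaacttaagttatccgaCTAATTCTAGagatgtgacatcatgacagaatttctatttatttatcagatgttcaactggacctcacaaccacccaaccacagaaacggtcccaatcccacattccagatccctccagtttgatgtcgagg
SPH12: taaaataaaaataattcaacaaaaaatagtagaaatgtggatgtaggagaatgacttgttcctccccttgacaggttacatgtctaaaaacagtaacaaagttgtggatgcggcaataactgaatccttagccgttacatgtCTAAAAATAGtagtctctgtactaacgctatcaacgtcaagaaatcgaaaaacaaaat
SPH5 (chr1:1294264-1294463, minus strand), the tested member that was not called, held none.
SPH5: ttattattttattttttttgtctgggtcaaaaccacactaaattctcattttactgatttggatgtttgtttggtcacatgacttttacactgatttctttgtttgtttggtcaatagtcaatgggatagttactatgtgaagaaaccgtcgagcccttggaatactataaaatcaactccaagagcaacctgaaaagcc

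The most abundant members kept a few counts in naa50-1. AT2G04115 (chromosome 2, 1385438 to 1386071, plus strand), a single-exon gene for a protein of the S1 family, had 596, 497 and 635 counts in the wild-type libraries and 3, 4 and 9 in the naa50-1 libraries. Its ratio was 109 (66.8 to 191, counting error), and its fitted log2 fold change was -6.76 (SE 0.29, adjusted p = 5.49e-07, edgeR), or -7.35 without naa50-1 replicate 3. SPH15 (AT5G39493, chromosome 5, 15809955 to 15810693, minus strand) had 496, 479 and 476 counts against 3, 1 and 5. It was the most even of the tested members among wild-type libraries, and its ratio was 162 (85.3 to 356; log2 fold change -7.31, SE 0.28, adjusted p = 3.3e-07, edgeR). These 2 genes, which lie on different chromosomes, held 46.6% of the family's wild-type counts.

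Both neighbouring copies on chromosome 1 fell. AT1G28305 (9904710 to 9905516, minus strand) had 139, 251 and 211 counts in the wild type and 1, 0 and 3 in naa50-1. Its ratio was 151 (58.8 to 557), and its fitted log2 fold change was -7.14 (SE 0.52, adjusted p = 1.74e-05, edgeR), or -8.36 without naa50-1 replicate 3. AT1G28306 (9906882 to 9907725, minus strand) had 158, 217 and 182 counts and 0 in all naa50-1 libraries. Against a floor of 3 counts over the 3 libraries it was at least 187-fold lower (adjusted p = 1.48e-05, edgeR). In both genes every wild-type library lay above every naa50-1 library.

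SPH23, SPH12 and AT3G10460, each the high copy beside weakly expressed neighbours, also fell. SPH23 (AT3G26860, chromosome 3, 9901294 to 9902119, minus strand) had 180, 552 and 366 counts in the wild type and 0 in naa50-1, at least 368-fold lower (adjusted p = 0.000127, edgeR). SPH12 (AT5G26060, chromosome 5, 9104730 to 9105525, minus strand) had 136, 235 and 188 counts, and a single count in naa50-1, in replicate 3. Its ratio of 563 therefore has a wide interval (101 to 22266). The fitted log2 fold change of SPH12 was -8.70 (SE 0.55, adjusted p = 6.69e-06, edgeR), or -10.56 without that library, where the fitted value depends on a prior count. AT3G10460 (chromosome 3, 3255767 to 3256439, plus strand) had 84, 178 and 132 counts against 0, at least 132-fold lower (adjusted p = 0.000102, edgeR). SPH23, SPH12 and AT3G10460 had their lowest wild-type value in replicate 1 and their highest in replicate 2, but even the lowest was far above naa50-1.

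Of the unannotated rows, block A had 39, 35 and 50 counts in the wild type and 0 in naa50-1, at least 41.6-fold lower (adjusted p = 0.000336, edgeR). It spans 7689555 to 7696768 on the plus strand of chromosome 4 and overlaps block B (7692763 to 7703266, plus strand, 18 wild-type counts) and block C (7689555 to 7703259, minus strand, 27 wild-type counts), both at 0 in naa50-1. Together the 3 rows cover 13712 bases, in which the RefSeq annotation places 8 pseudogenes, 5 other RNAs and 0 protein-coding genes. The stretch is a repeat array: aligned to itself it matched at offsets of 3267, 6518, 9769 and 13035 bases with 98.2% to 98.8% identity. The array holds 5 stretches that read as 124 codons like SPH15 (48.4% to 49.2% identical amino acids), with the best matches on the minus strand. Matches of 117 codons (47.9% to 48.7%) lay on the plus strand at the same places, so no strand is read from them. Reads of near-identical repeats and of overlapping rows may be shared or dropped, and the strand setting of the counting is unknown here, so the values of the 3 rows are uncertain.

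SPH5 was the one tested member that was not called. SPH5 (AT1G04645, chromosome 1, 1293770 to 1294263, minus strand) had 21, 20 and 28 counts in the wild type and 30, 33 and 33 in naa50-1. The groups did not overlap, but the difference did not pass the test (log2 fold change 0.43, SE 0.31, adjusted p = 0.544, edgeR). On deposited FPKM (fragments scaled to gene length and library size, which allows levels of genes to be compared) it stood at 2.32 ± 0.495 in the wild type and 3.14 ± 0.108 in naa50-1. It had the highest FPKM of the family in naa50-1, where AT3G24065 (0.414 ± 0.216), AT2G04115 (0.407 ± 0.246) and AT2G24870 (0.376 ± 0.332) followed and could not be ordered beyond their spread.

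By FPKM in the wild type, AT2G04115 led with 45.2 ± 6.80, followed by SPH15 with 32.5 ± 1.23, and the ranges of these neighbours in the order did not overlap. SPH23 followed with 21.9 ± 10.6, and its range of 10.9 to 32.2 reached both SPH15 above it and AT1G28305 below it. AT1G28305 (12.3 ± 3.28), SPH12 (11.6 ± 2.85), AT1G28306 (10.9 ± 1.497) and AT3G10460 (9.65 ± 3.25) could not be ordered beyond their spread. SPH5 and block A (2.27 ± 0.483) lay below all of these and overlapped each other.

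**Figure D2:**
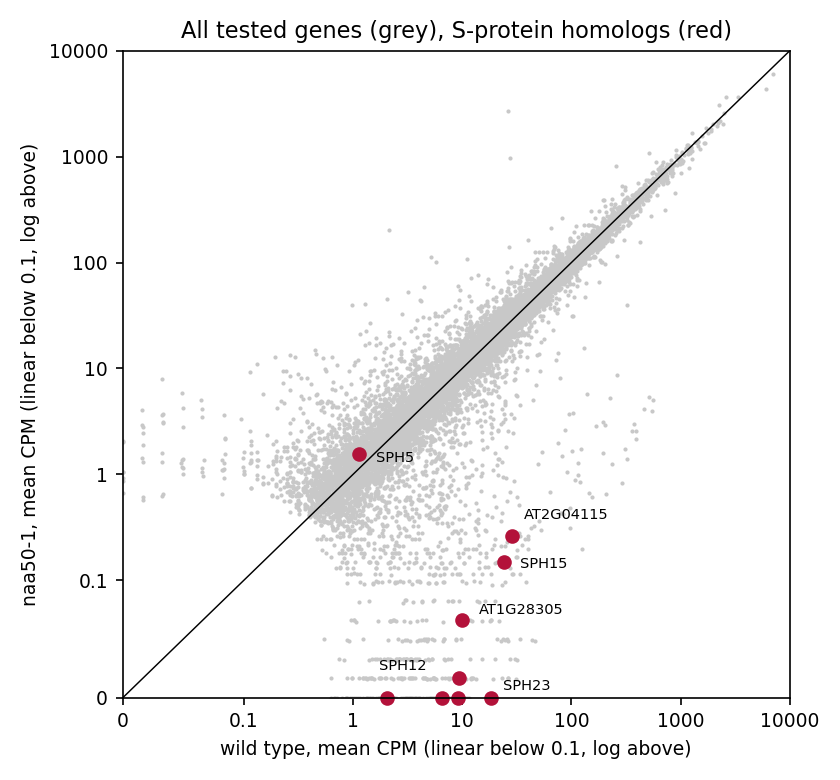
Mean CPM in the wild type (horizontal) and in naa50-1 (vertical) of all 21196 tested genes (grey) and of the 9 tested S-protein homologs (red). Both axes are linear below 0.1 and logarithmic above, and the diagonal marks equal levels. SPH5 lies beside the diagonal and the other 8 members lie far below it, with 4 of them on the line of 0 counts.

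The 32 members that were too low for the test summed to 239 counts in the wild type and 34 in naa50-1, a ratio of 7.08 (4.93 to 10.5). None had more than 27 counts in a genotype. Among them 9 had every wild-type library above every naa50-1 library. SPH21 and block C had 27 wild-type counts each and AT1G26795 had 25, all against 0. Next were block B with 18, SPH14 with 17, AT5G04347 with 14, AT3G10455 with 13 and SPH19 with 11, again against 0. AT5G26090 had 14 counts against 1. AT3G24065 had 8 counts in the wild type and 15 in naa50-1, and AT2G24870 had 5 and 7, with overlapping libraries in both genes. Over all 41 members with any count, 27 had wild-type counts and 0 in naa50-1, 12 had counts in both genotypes, and 2 (AT2G24880 and AT5G06040) had counts in naa50-1 alone, 2 and 1 of them. Among all rows with a count 4.07% had 0 counts in naa50-1. A 0 is more frequent among weakly expressed rows, whichever the family, so that share is no measure for members with a handful of counts. In 17 of the 41 all naa50-1 libraries lay below all wild-type libraries, against 10.2% of rows with a count. SPH5 was the only member with the opposite separation. The remaining 22 members, SPH1, SPH2, SPH3 and SPH13 among them, had 0 counts in all 6 libraries, which allows up to 3 counts in a library.

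**Figure D3:**
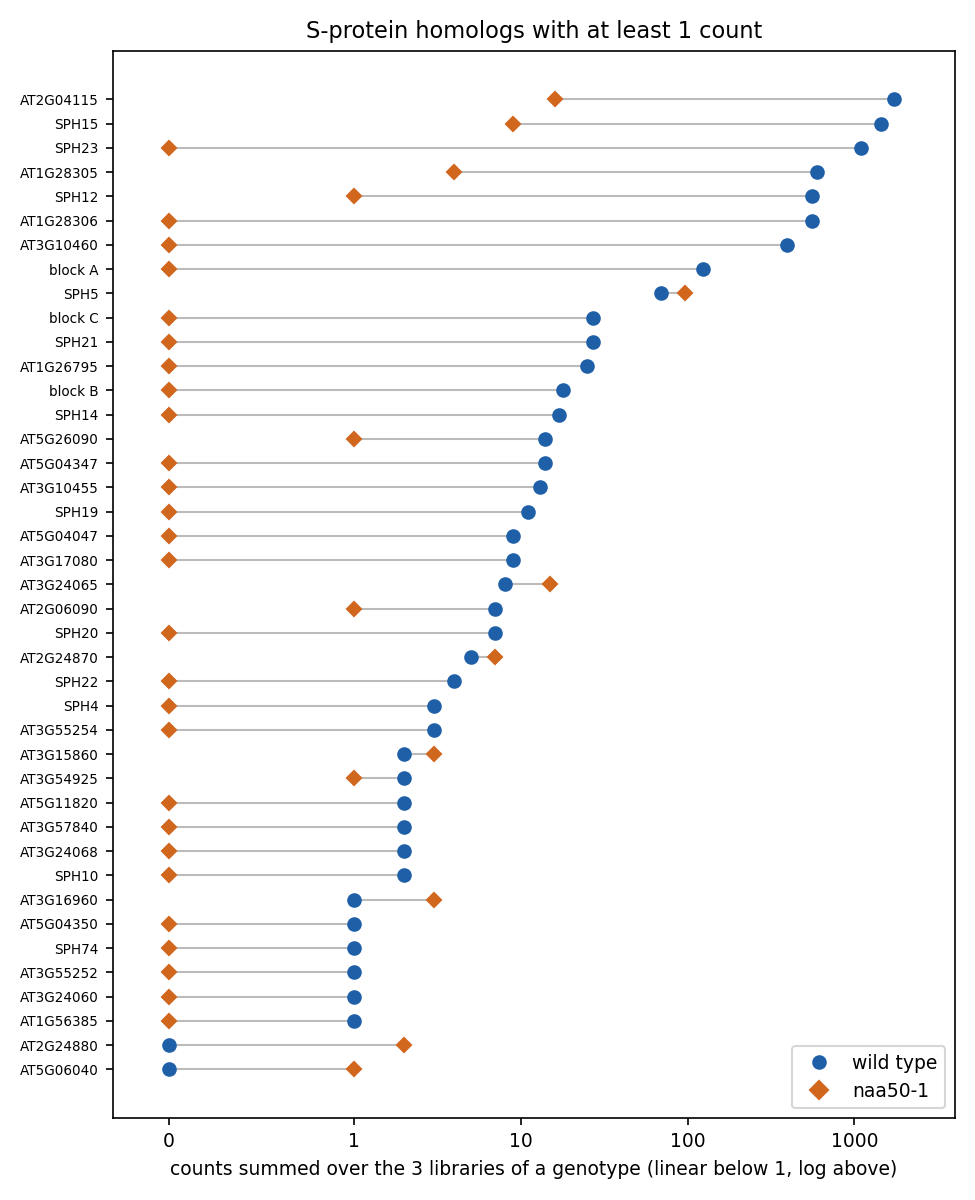
Counts summed over the 3 libraries of each genotype, wild type (blue circles) and naa50-1 (orange diamonds), for the 41 S-protein homologs with at least 1 count. The axis is linear below 1 and logarithmic above. Wild-type sums run from 1728 counts in AT2G04115 down to 0, and most naa50-1 sums lie at 0.

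The authors' deposited table, which holds an adjusted p for 35 members, gave the same direction for the tested genes. At 0.05 it listed 12 members as lower and 0 as higher. These were the 8 genes above and SPH21, block C, AT1G26795 and block B, whose log2 fold changes in the authors' deposited table were -5.63, -5.65, -5.55 and -5.05. With edgeR and a filter of at least 10 counts over the 6 libraries, 20 members were tested and 13 were called lower, the additional ones being the same 4 and AT5G04347 (adjusted p = 0.0494, edgeR). With no filter on low counts 12 of 41 were called lower by edgeR, against 4.77% of all rows. For the other counts of 12 and 13 no share over all rows is given, so they are not read as a result about the family.

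The rule read the gene descriptions. The count table also holds a family label for S1-type self-incompatibility proteins, which 11 further rows carry without those words in their description. Of these, 3 were tested and all 3 were called lower by edgeR, against 5.59% of all tested genes. All 3 passed the filter on low counts through the wild type alone and had to differ, so this count supports nothing about the family. AT1G51250 had 84, 319 and 214 wild-type counts and 0 in naa50-1 (at least 207-fold lower, adjusted p = 0.000389, edgeR). AT1G11765 had 103, 272 and 210 counts against 2, 0 and 1 (a ratio of 196, 66.8 to 955 by counting error, adjusted p = 3.92e-05, edgeR). SPH8 had 52, 163 and 109 counts against 0 (at least 109-fold lower, adjusted p = 0.000416, edgeR). Each had its highest wild-type value in replicate 2. The other 8 rows had 0 to 6 wild-type counts. With these rows the family held 74 rows and 0.0138% of wild-type counts.

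Family rows were clustered in the genome, and neighbouring copies differed widely in level. Of the 74 rows, 56 lay in 22 groups with gaps of at most 10000 bases, the largest of 5 rows, and 18 lay alone. SPH23 (1098 wild-type counts) lies beside SPH22 (4 counts) and SPH21 (27 counts), with coding sequences 67.9% and 57.2% identical to its own. SPH12 (559 counts) lies beside SPH13, which had 0 counts (55.9% identity). AT3G10460 (394 counts) lies beside AT3G10455 (13 counts, 51.9% identity). SPH8 (324 counts) lies beside SPH9 (0 counts), and AT1G51250 (617 counts) lies in a group with AT1G51230 (0 counts). The pair AT1G28305 and AT1G28306 was high in both copies, and their coding sequences were the most alike of the tested members (82.1% identity). The nearest tested genes outside the family on either side of the 8 called members were examined as well. Of 14 such neighbours, 1 was called lower and 0 higher, near the 5.59% and 3.94% of all tested genes. That gene was AT3G10470, which lies 3702 bases from AT3G10460 (log2 fold change -2.20, adjusted p = 0.00554, edgeR).

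**Figure D4:**
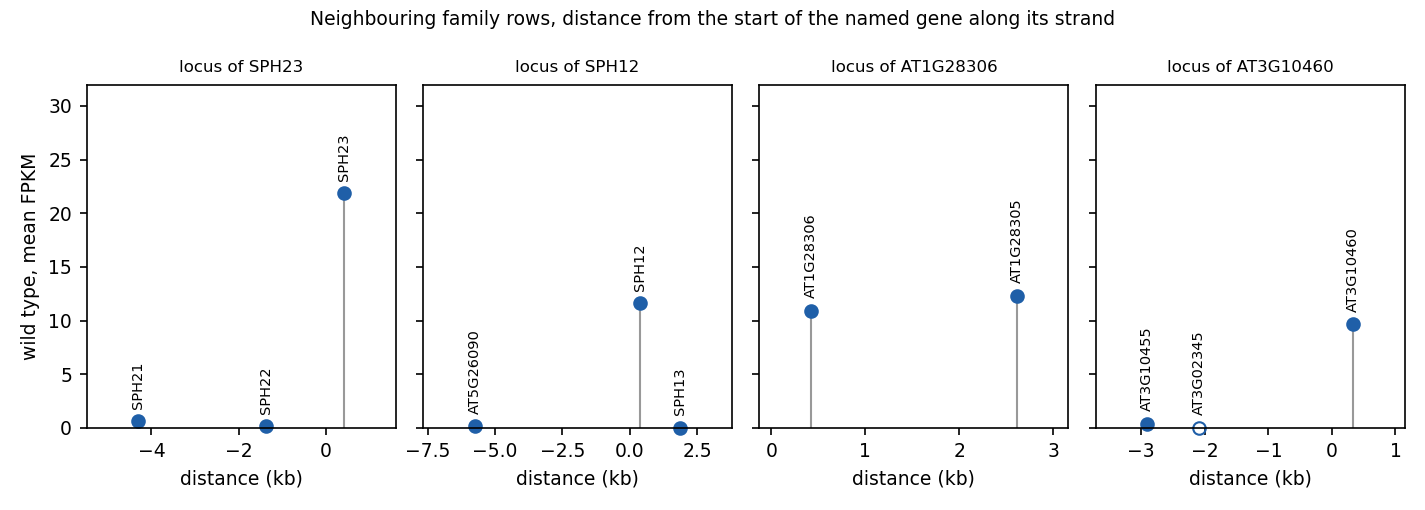
Mean wild-type FPKM of neighbouring family rows at 4 loci, against the distance in kilobases of the middle of each row from the start of the gene named above the panel, along its strand. The open circle is a row that carries the family label without the words of the rule. In 3 of the panels 1 copy stands far above its neighbours, and AT1G28305 and AT1G28306 stand at similar levels.

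The members share a compact gene structure. All 60 annotated members had the same bounds in the RefSeq TAIR10.1 annotation, and 52 of the 60 had a single coding exon, as did all 8 annotated tested genes. Coding sequences held 55 to 431 codons (median 142), and those of the tested genes 122 to 154. The number of cysteine codons ranged from 0 to 9 (median 4.5), and 46 members had at least 4. The 7 annotated genes that fell had 3 or 4, and SPH5 had 7. Pairwise identity of coding sequences between the tested genes was 45.8% to 82.1% (median 52.7%), little above the median of 50.5% over all 1770 pairs of members. In 11 of these pairs identity was above 80%, with a highest value of 94.3%. Of 38 members with counts and a reference transcript, 3 matched another gene's transcript at 95% identity or more over at least 100 bases. These were AT3G10455, SPH22 and AT5G11820, whose few counts are uncertain. For AT3G10455 (242 bases) and AT5G11820 (100 bases) the match was as long as their overlap with that gene, which lies on the opposite strand. SPH22 overlapped no other row. None of the annotated tested genes had such a match, and none of them overlapped another row, although 9 members in all did.

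The sequences before the genes showed some resemblance. Of the SPH15 window printed above, 104 bases matched the AT2G04115 window at 77.9% identity. The coding sequences of these genes, which lie on different chromosomes, were 53.1% identical. The window value covers a matched stretch only and the coding value the whole longer sequence, so they cannot be compared. The SPH15 and AT2G04115 windows also matched that of AT1G51230, which had 0 counts. The AT1G28305 and AT1G28306 windows matched over 76 bases at 88.2% identity. The AT1G28305 window also matched that of SPH22 (57 bases, 77.2%) and those of genes outside the family, AT1G21695 (50 bases, 84.0%) and AT5G56200 (41 bases, 85.4%). Motifs were searched for on both strands in the 200 bases before each gene. The widened CTA and TAG box was found in 4 of the 7 annotated genes that fell (SPH15, SPH23, AT1G28305 and SPH12), in 10 of 60 members (16.7%) and in 4.60% of 27419 protein-coding genes. The matches of SPH23 hold G or C among the 4 free bases and so fit the widened form only. AGAAA, a pollen element of tomato, was found in 7 of 7 and in 78.3% of members, but also in 75.3% of all windows. TATAAA, the core of the TATA box, was found in 4 of 7, in 70% of members and in 41.0% of all windows. TGTGGTT, another tomato pollen element, was found in 1 of 7, in 5% of members and in 3.52% of all windows. TAACAAA, a gibberellin-response element, was found in 1 of 7, in 21.7% of members and in 12.97% of all windows. A match says only that the letters are there. The base composition of the windows was not compared with that of all windows, so the shares are not read as enrichment. In AT3G24060 the annotated gene and its coding sequence both hold 444 bases, so that window ends at the start codon. Windows thus need not cover the same region in every gene.

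Marker genes of pollen and of other bud tissues were set beside the family. The shares over all tested genes, to be held beside each list, were 5.59% called lower and 3.94% higher. Of 36 tested mature pollen and pollen tube genes 33 fell and 0 rose, with a median log2 fold change of -5.70 (-5.42 with genes at 0 in naa50-1 at their bound). Values in parentheses from here on are log2 fold changes unless said otherwise. As with the S-protein homologs, 19 of the 36 passed the filter through the wild type alone and had to differ. The count of 33 therefore supports nothing about the list as a whole. Their summed share of counts was 0.132% to 0.191% in wild-type libraries and 0.0106% to 0.0122% in naa50-1 libraries, and 5 of the 39 listed genes were at 0 in naa50-1. The genes with the smallest p were PPME1, a pectin methylesterase (-8.32), AHA6, a proton pump (-7.18), VGD1, a pectin methylesterase (-7.54), and STP9, a sugar transporter (-5.79). Of 4 tested sperm lineage genes 3 fell: the histone HTR10, GEX3 and the regulator DAZ2, all at 0 counts in naa50-1 and lower by at least 106-fold, 17.4-fold and 12.8-fold in that order. All 3 passed the filter through the wild type alone, so this count supports nothing. The median of the 4 was -6.92, or -3.90 with genes at their bound. That list, with 4 of 7 genes at 0 in naa50-1, made up 0.000779% to 0.00112% of counts in the wild type and 7.43e-05% to 0.000101% in naa50-1. No tapetum gene was called in edgeR (0 of 13, median 0.16, and 0 at an unadjusted p under 0.05 or in DESeq2), CYP703A2 having the smallest p (0.42, adjusted p = 0.434, edgeR), and the list made up 0.0658% to 0.109% of counts in the wild type and 0.0894% to 0.105% in naa50-1. Of 10 pistil genes (median 0.07) only CRC, a carpel regulator, fell (-0.59, adjusted p = 0.00566, edgeR), and of 4 tested ovule and egg genes 0 were called (median 0.13; BEL1, 0.30, adjusted p = 0.23, edgeR; 1 at an unadjusted p under 0.05 and 0 in DESeq2). SEP2 had the smallest p of the floral identity genes (0.35, adjusted p = 0.078, edgeR). The part of pollen content in the fall of the S-protein homologs was not tested.

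Of 13 genes of pollen and stigma recognition in Brassicaceae 4 fell and 1 rose, with a median log2 fold change of -0.02. Over all tested genes 5.59% were called lower and 3.94% higher. The 4 that fell encode small cysteine-rich pollen coat proteins of the PCP-B type: AT2G29790 (-7.54), AT2G16505 (-6.53), AT2G16535 (-5.73) and AT5G61605 (-2.36). Of these, 3 passed the filter through the wild type alone and had to differ, so the count of 4 supports nothing about the list. ARK1, a receptor kinase of the S-domain class, rose (1.65, adjusted p = 0.0345, edgeR). FER, a receptor kinase of female tissues among others, had a value of 0.12 (adjusted p = 0.754, edgeR) and EXO70A1, an exocyst subunit, 0.12 (adjusted p = 0.652, edgeR). The remaining 6 genes, APK1B, ARK2, ARK3, PLDALPHA1, ANJ and PUB17, were not called either.

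Other families of small secreted peptides were set beside the family as well, where again 5.59% of all tested genes were called lower and 3.94% higher. Of 253 rows described as defensin-like, 35 were tested, 25 fell and 0 rose (0 also at an unadjusted p under 0.05 and in DESeq2), with a median log2 fold change of -6.24 (-6.09 with genes at 0 in naa50-1 at their bound). The smallest p belonged to LCR17 (-7.47), LCR5, LCR4 (-6.74) and LCR34. LCR5 had 1 count in naa50-1, a ratio of 765 (137 to 30258, counting error), and LCR34 had 2, a ratio of 153 (41.9 to 1265). Of 38 RALF rows, which encode peptide ligands, 18 were tested, 11 fell and 0 rose (2 were higher at an unadjusted p under 0.05, and 0 in DESeq2), with a median of -6.16 (-6.03 with genes at their bound). RALF4 and RALF19 (-7.51), ligands that keep the pollen tube intact, and AT2G32885 (-8.02) and RALFL15 had the smallest p. RALF4 had 3 counts in naa50-1, a ratio of 420.1 (143 to 2040, counting error), and RALFL15 had 1, a ratio of 1163 (208 to 45963). Of the tested rows, 23 of 35 defensin-like and 9 of 18 RALF rows passed the filter through the wild type alone and had to differ, so these counts support nothing about the families. Without naa50-1 replicate 1 the values became -8.22 for AT2G29790, -7.19 for AT2G16505 and -9.25 for AT2G32885. Without replicate 2 they became -5.94 for AT2G16505 and -11.56 for RALF19, whose 6 counts in naa50-1 were all in that library, so that this value depends on a prior count, and without replicate 3 -7.41 for LCR4 and -7.87 for AHA6. As a share of all counts, defensin-like rows went from 0.061% ± 0.00484 to 0.0401% ± 0.00392 and RALF rows from 0.0522% ± 0.00825 to 0.0337% ± 0.00215. These differences between families were not tested.

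Among the wild-type libraries the tested members were spread in different ways. Of the summed CPM of SPH23, 15.8% came from replicate 1, 51.1% from replicate 2 and 33.1% from replicate 3. AT3G10460 (20.6%, 46.0% and 33.3%), SPH12, AT1G28305 and AT1G28306 were likewise highest in replicate 2 and lowest in replicate 1. SPH15 was even (33.3%, 33.9% and 32.9%), and AT2G04115 (33.6%, 29.5% and 36.8%) and block A were highest in replicate 3. SPH5 was also highest in replicate 3 (40.6%). The pollen list was highest in replicate 2 (28.3%, 41.2% and 30.4%), as was the sperm list (39.0%). So were the pistil list (29.1%, 40.2% and 30.7%), the ovule and egg list (39.5%), and the RALF (37.0%) and defensin-like (35.9%) rows. The tapetum (43.7%) and recognition (35.6%) lists were highest in replicate 1, and the floral identity list in replicate 3 (37.3%). The RALF rows include RALF4 and RALF19, which are also in the pollen list. How these peaks relate to pollen content was not tested. With 3 libraries these patterns have no test. Without wild type replicate 2, as without any other single library, the same 8 members were called lower by edgeR.

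**Figure D5:**
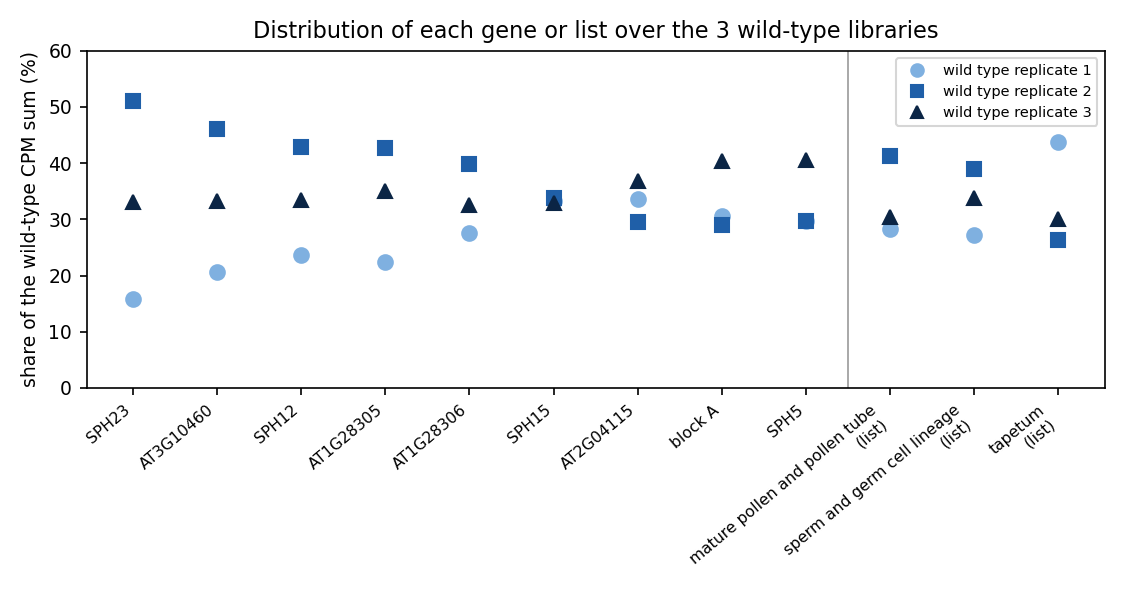
Share in percent of the CPM summed over the 3 wild-type libraries that each library gave, for the 9 tested S-protein homologs and 3 marker lists. An even spread would put all points at one height. Lists not drawn, among them the pistil list with 40.2% in replicate 2, are given in the text. SPH23 ranges from 15.8% to 51.1%, and SPH15 from 32.9% to 33.9%.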

How the data were processed

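RNA of unopened buds was sequenced in 3 wild-type and 3 naa50-1 replicates, and groups and replicate numbers follow the labels. Per the submitters' processing notes, HISAT2 2.0.5 and the build TAIR10 were used; the sources used here give no counter, annotation release or strand setting. The authors deposited whole-number read counts per gene, and FPKM values, which allow levels of different genes to be compared. The authors' deposited comparison table holds a normalized signal per group, a log2 fold change, and a p-value with its adjusted value.

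Counts were scaled by TMM, filtered with filterByExpr and compared in edgeR 4.0.16 (R 4.3.3) by its quasi-likelihood test with genotype as the only term. P-values were adjusted after Benjamini and Hochberg over all tested genes, and 0.05 was the threshold. The test was checked on simulated counts with fold changes far smaller than those of the called members. That check does not cover genes nearly absent from 1 genotype. CPM are counts per 1000000 of the library total; group values are means ± SD. Ratios of summed counts are scaled to library totals and carry exact 95% conditional binomial intervals; a fold against 0 uses 3 counts over the group. Intervals and floors cover counting error only. No replicate was a duplicate (chi-square of pairs of libraries 13.0 to 28.5 per degree of freedom). Alternatives were other scalings and filters, DESeq2 1.42.0, limma 3.58.1 on log2(FPKM + 1) and log2(FPKM + 0.1), a threshold of 0.01, the replicate block, and each library left out.

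The members and lists were chosen with earlier results of these data known. Named in full were members past the threshold, tested members at 1 CPM or more in either genotype, and from each list up to 4 called genes with the smallest p, or the smallest p alone where none was called; further genes were named after their values were seen. Sequences come from the RefSeq TAIR10.1 genome, whose gene bounds equalled those of all 60 annotated members. Similarity was found with blastn 2.17.0 and tblastx, and coding identity with Biopython 1.88 as identical bases over the longer sequence.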

Additional observations from a re-analysis of the deposited data

How the results depend on the processing

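The 8 members called lower stayed called lower in 120 of 120 results over 15 alternatives, with a highest adjusted p of 0.00367, and no member was called higher in any of them. These 8 passed the main filter through the wild type alone and had to differ, so their stability supports nothing about the family as a whole. The number of members called lower was 13 with a filter of 10 counts over the libraries (edgeR, 20 tested) and 12 with DESeq2. Over 41 members with no filter it was 12 with edgeR, 10 with limma on log2(FPKM + 1) and 15 with limma on log2(FPKM + 0.1). A share over all rows is given only for edgeR with no filter (4.77% lower), so the other counts describe the members alone. With each library left out the count was 8 to 8, with 0 to 0 called higher, and the share of counts ranged from 0.0105% to 0.0123% in the wild type and from 0.000242% to 0.000275% in naa50-1. Adding rows with the family label, an alternative chosen after seeing the data, gave 11 members lower and a wild-type share of 0.0138%. The added rows that were called also passed the filter through the wild type alone and had to differ. Over all genes 2021 were called; the number was 1336 at an adjusted p of 0.01, 2474 with DESeq2 and 1645 to 1926 with a library left out. Same-numbered libraries did not deviate together (correlations -0.00011, 0.0587 and 0.102), and with the replicate number as a block 1969 genes and 8 members were called. Of 33 single genes 31 kept their call throughout. CYP703A2 passed without wild type replicate 1 (0.80, adjusted p = 0.0212, edgeR), and SEP2 with library totals (0.38, adjusted p = 0.037, edgeR) and with DESeq2 (0.35, adjusted p = 0.0107); the cause was not tested. Low counts kept 32 of the 41 members with counts out of the test.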
